A study of Arabidopsis thaliana with 8 samples.

Results

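GID1A, GID1B and GID1C encode the gibberellin receptors of Arabidopsis thaliana, and their transcripts were followed across dark-grown seedlings that had or lacked phytochrome A and phytochrome B. A probe set was taken where the platform's annotation named exactly 1 of these genes. That gave 3 genes with 1 probe set each: 259302_at for GID1A (locus AT3G05120), 251200_at for GID1B (AT3G63010) and 246782_at for GID1C (AT5G27320). They are 3 of 13356 genes that had a probe set of their own, and all 3 passed the filter on dim signal, which kept 13647 of the 22746 probe sets that are not array controls. All seedlings were of the Columbia accession and were compared as 4 genotypes with 2 ATH1 arrays each, 8 in total: wild type (WT), the mutant allele phyA-211 (phyA), the mutant allele phyB-9 (phyB), and plants with both alleles (phyAphyB). Every genotype, WT included, had 5 days at 6 degrees C, then 1 h of white light to start germination, and 3 days of darkness at 22 degrees C, after which total RNA was extracted from the seedlings. The labels do not tell whether both arrays of a genotype hold separate batches of seedlings; p-values therefore reflect array-to-array spread that may be technical.

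Gibberellins are growth hormones that promote germination and the elongation of the hypocotyl. A GID1 protein binds the hormone, the loaded receptor binds a DELLA protein (a repressor of growth genes), and the F-box protein SLY1 then marks the DELLA for destruction. The 3 receptors overlap in function, and applied gibberellin is known to lower GID1 transcript levels, a feedback on the pathway. Phytochromes are red and far-red light receptors that act on gibberellin levels and, through PIF transcription factors, on the same growth genes as the DELLAs.

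The deposited intensities had been scaled by the authors to 1 trimmed mean per array, and levels below are log2(intensity + 39), where 39 is the pseudocount. WT replicate 1 and phyB replicate 2 stood apart in the array's GAPDH control, whose 3'/5' ratio is high where transcripts are short or labelled mostly near their 3' end. It reached 16.7 in the first of these and 7.87 in the second, and lay at 1.31 to 2.31 in the other 6 arrays. In a further pair of GAPDH control probe sets WT replicate 1 was at 3.53, phyB replicate 2 at 1.47 and the others at 1.12 to 1.36, so only WT replicate 1 was far from the rest in both. The actin 3'/5' ratios also set WT replicate 1 alone apart, at 46.7 and 48.4 in 2 pairs of probe sets. There phyB replicate 2, at 7.50 and 3.38, lay within the 3.64 to 10.8 and 1.84 to 3.44 of the other 6 arrays. Log2 values of 2 arrays correlated at 0.930 to 0.944 within a genotype (4 pairs) and at 0.908 to 0.965 between genotypes (24 pairs). PORB, a protochlorophyllide reductase abundant in dark-grown seedlings, had intensities of 34265 to 63901 over the 8 arrays. No probe set was named for PHYA or PHYB, so the mutants could not be checked on their own genes.

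GID1A was highest in the phyA seedlings. Its intensities were 1444 and 3084 for the WT arrays, 3819 and 3881 for phyA, 3249 and 1557 for phyB and 2585 and 3141 for phyAphyB, replicate 1 first. Both phyA arrays lay above the other 6, a placing whose share among kept probe sets was not counted. The lowest values were WT replicate 1 and phyB replicate 2. On the log2 scale its means were 11.07 ± 0.76 for WT, 11.16 ± 0.74 for phyB, 11.50 ± 0.20 for phyAphyB and 11.93 ± 0.02 for phyA (SD, n = 2). The WT arrays differed by 1.07 log2 units and the phyB arrays by 1.04, while the phyA arrays differed by 0.02.

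GID1B had the widest range of the receptors on the log2 scale, and it too was lowest in WT replicate 1 and phyB replicate 2. Its intensities were 529 and 855 for the WT arrays, 1786 and 1420 for phyA, 1221 and 560 for phyB and 987 and 1711 for phyAphyB. The WT arrays were below both phyA arrays and both phyAphyB arrays, and the phyB arrays lay on either side of WT replicate 2. Log2 means were 9.48 ± 0.46 for WT, 9.76 ± 0.76 for phyB, 10.39 ± 0.54 for phyAphyB and 10.67 ± 0.23 for phyA (SD, n = 2). The double mutant's arrays differed 1.73-fold from each other, so phyA and phyAphyB overlapped.

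GID1C varied least. Its intensities were 620 and 879 for the WT arrays, 1154 and 1103 for phyA, 1075 and 775 for phyB and 927 and 1122 for phyAphyB. As for GID1B, both WT arrays were below both phyA and both phyAphyB arrays, with WT and phyB overlapping. Log2 means were 9.60 ± 0.34 for WT, 9.90 ± 0.32 for phyB, 10.05 ± 0.19 for phyAphyB and 10.19 ± 0.04 for phyA (SD, n = 2).

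**Figure D1:**
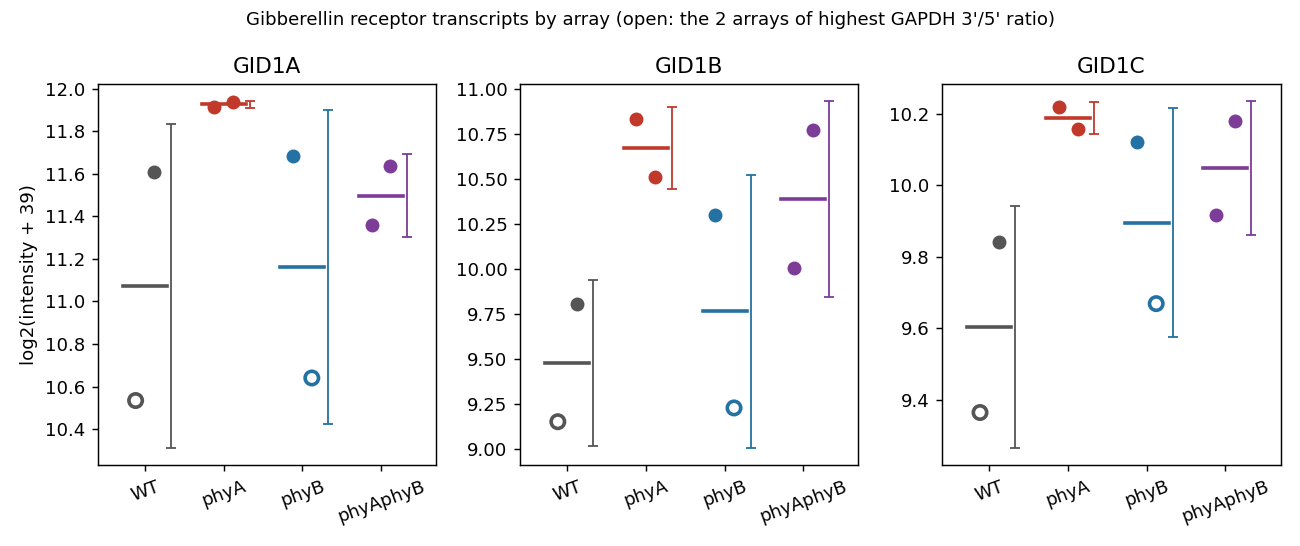
Level of each receptor as log2(intensity + 39) (vertical axis) in the 4 genotypes (horizontal axis); points are single arrays, replicate 1 on the left, wide bars the mean, and error bars 1 SD on each side of the mean (n = 2). The open points, WT replicate 1 and phyB replicate 2, are the lowest of the 8 arrays for all 3 genes, and the vertical axes differ in range and do not start at 0.

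All 3 receptors had the same order of means, with WT lowest, then phyB, phyAphyB and phyA. The same order held for 7.24% of the 13647 kept probe sets, which are measured on the same 8 arrays. It rested on WT replicate 1 and phyB replicate 2. With both left out, phyAphyB was below WT (-0.11) and phyB (-0.19) for GID1A, and below phyB (-0.073) for GID1C. The order then held for GID1B alone. None of the neighbours in that order was separated for all 3 genes by the arrays themselves: WT and phyB overlapped in every receptor, as did phyB and phyAphyB, and phyAphyB and phyA were apart for GID1A alone. In extracts of whole seedlings, fewer cells that make a transcript and less transcript per cell cannot be told apart.

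The arrays with the highest GAPDH 3'/5' ratio were the lowest for every receptor. WT replicate 1 was lowest and phyB replicate 2 next lowest for GID1A, GID1B and GID1C, a placing of these 2 arrays below the other 6 that 11.9% of kept probe sets shared, while 8.98% had these 2 above the other 6. GID1A averaged 10.59 on the log2 scale in these 2 arrays and 11.69 in the other 6, a difference of 1.10 that exceeded the range of 0.58 among the 6. For GID1B the difference was 1.18 with a range of 1.03 among the 6, and for GID1C 0.56 with a range of 0.38. The median difference over all kept probe sets was 0.04, and 96.0%, 96.8% and 82.4% of them had a smaller difference than GID1A, GID1B and GID1C. The part of the control ratio in the genotype differences was not tested, but it was uneven between genotypes: 16.7 and 2.19 in WT, 1.31 and 1.57 in phyA, 2.31 and 1.96 in phyAphyB, and 1.45 and 7.87 in phyB.

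**Figure D2:**
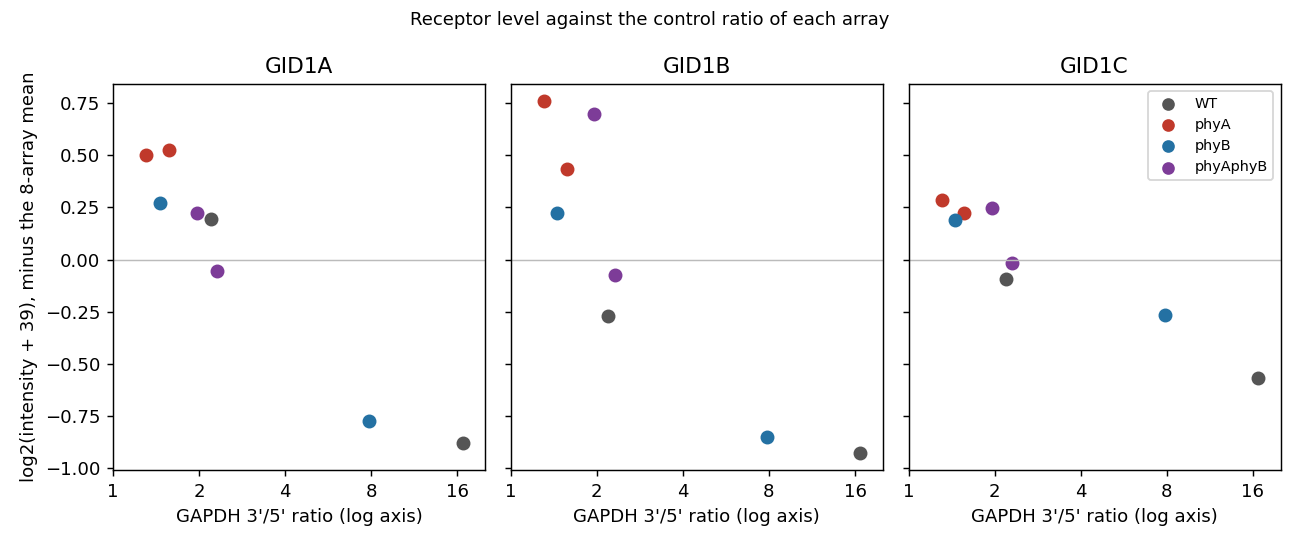
Each receptor's log2(intensity + 39) minus its mean over the 8 arrays (vertical axis) against the GAPDH 3'/5' ratio of the array (horizontal log axis), with 1 point per array coloured by genotype. The arrays at ratios of 7.87 and 16.7 lie lowest in each panel, and the phyA arrays, at 1.31 and 1.57, lie among the highest.

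The phyA single mutant had the largest receptor differences from WT, and none passed the test. GID1B stood 1.20 log2 units higher in phyA than in WT (SE 0.49, 95% interval 0.11 to 2.28), GID1A 0.85 higher (SE 0.46, -0.18 to 1.89) and GID1C 0.59 higher (SE 0.39, -0.29 to 1.46). The limma adjusted p was 0.761 for GID1B, 0.774 for GID1A and 0.806 for GID1C, with unadjusted values of 0.0345, 0.0957 and 0.165. Of all kept probe sets 0.0147% were called in this comparison, 2 in number, and 0 of the 3 receptors were. The interval of GID1B runs from 1.08-fold to 4.87-fold, so these arrays leave room for a change of several fold as well as for almost none.

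Both phyA arrays exceeded both WT arrays for all 3 receptors, which 18% of kept probe sets did. The median change of the 3 genes was 0.85 against -0.01 over all kept probe sets, 49.0% of which were higher in phyA. By size of change, 97.2% of kept probe sets lay below GID1B, 93.1% below GID1A and 86.2% below GID1C. The difference rested on WT replicate 1 in part. Without it, GID1B stood 0.87 higher, GID1A 0.32 and GID1C 0.35, and without WT replicate 2 they stood 1.52, 1.39 and 0.82 higher. With the array's log2 GAPDH ratio as a covariate, a fit added after the values were seen, the phyA differences were 0.51 for GID1B (95% interval -0.66 to 1.69), 0.04 for GID1A (-0.83 to 0.91) and 0.22 for GID1C (-0.82 to 1.25).

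**Figure D3:**
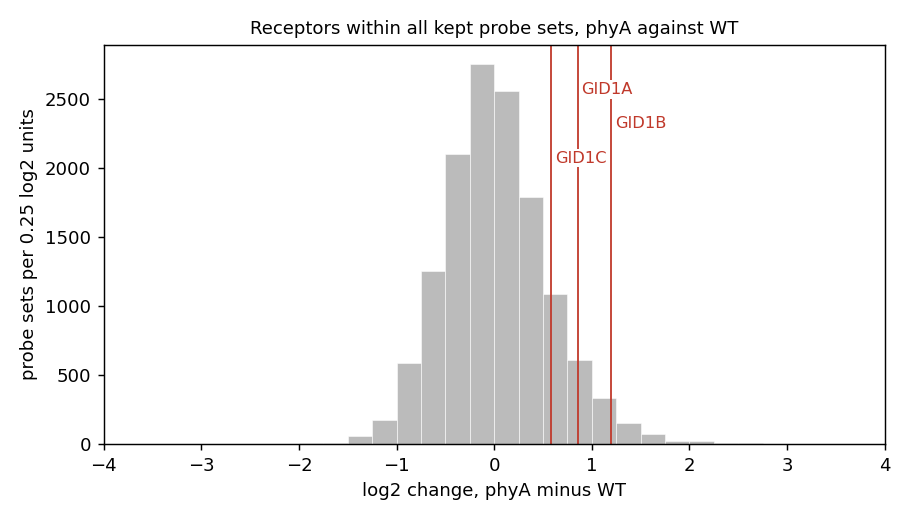
Number of kept probe sets (vertical axis) by log2 change of phyA against WT in bins of 0.25 (horizontal axis), with red lines at the 3 receptors; 4 probe sets beyond 4 log2 units are not drawn. All 3 lines lie on the higher side of the distribution, at 0.59 (GID1C), 0.85 (GID1A) and 1.20 (GID1B).

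The phyB single mutant had receptor means nearer to WT, and none was called. GID1A stood 0.09 log2 units higher in phyB (SE 0.46, 95% interval -0.94 to 1.12, limma adjusted p = 0.990), GID1B 0.29 higher (SE 0.49, -0.80 to 1.37, adjusted p = 0.960) and GID1C 0.29 higher (SE 0.39, -0.58 to 1.16, adjusted p = 0.949). No kept probe set was called by limma in this comparison (0%, with 809 at an unadjusted p under 0.05). Both phyB arrays were above both WT arrays for 0 of the receptors and for 14.7% of kept probe sets. The direction for GID1A turned without WT replicate 1, to -0.45, without phyB replicate 1, to -0.43, and with the GAPDH ratio as a covariate, to -0.24. That for GID1B turned to -0.04 without WT replicate 1 and to -0.25 without phyB replicate 1. WT and phyB each hold 1 of the 2 arrays of high ratio, and with both left out the values were 0.07 for GID1A, 0.50 for GID1B and 0.28 for GID1C.

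Seedlings lacking both phytochromes had mean receptor levels between those of phyB and phyA, and none was called against WT. Without phyB replicate 2, their means were below phyB for GID1A (-0.19) and GID1C (-0.07). GID1B stood 0.91 log2 units higher than in WT (SE 0.49, 95% interval -0.18 to 2.0), GID1C 0.45 higher (SE 0.39, -0.43 to 1.32) and GID1A 0.42 higher (SE 0.46, -0.61 to 1.46). The limma adjusted p was 0.997 for each, where 0.022% of kept probe sets, 3 in number, were called. Both double-mutant arrays exceeded both WT arrays for GID1B and GID1C, as for 17% of kept probe sets, but not for GID1A. Without WT replicate 1, GID1A turned to -0.11 while GID1B stood at 0.58 and GID1C at 0.21. The 3 comparisons against WT use the same 2 WT arrays, so their shared direction is not independent.

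**Figure D4:**
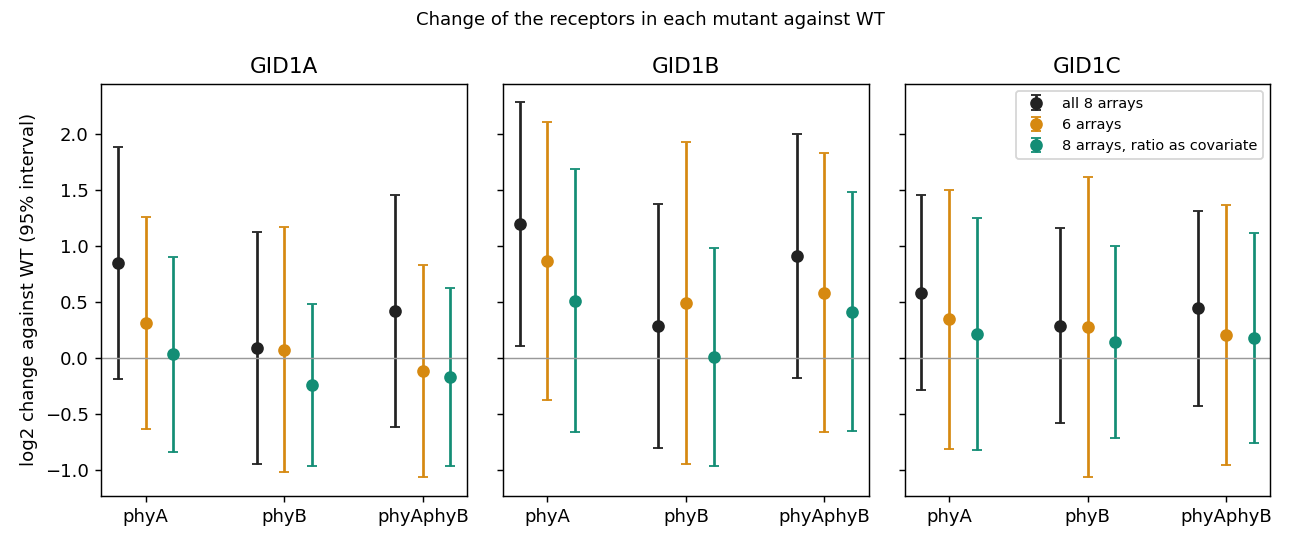
Log2 change of each receptor in phyA, phyB and phyAphyB against WT (vertical axis) with 95% limma intervals, from all 8 arrays (black), from the 6 arrays left without WT replicate 1 and phyB replicate 2 (orange), and from 8 arrays with the log2 GAPDH ratio as a covariate (green). In black, GID1B in phyA has the only interval above 0, from 0.11 to 2.28, and its orange and green intervals include 0.

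Between the mutants no receptor difference passed the test either. The double mutant was below phyA for all 3 receptors, by -0.43 for GID1A (95% interval -1.46 to 0.61), -0.28 for GID1B (-1.37 to 0.80) and -0.14 for GID1C (-1.01 to 0.73), each at a limma adjusted p of 1.00. Against phyB the double mutant stood 0.63 higher for GID1B (-0.46 to 1.71), 0.33 for GID1A (-0.70 to 1.37) and 0.15 for GID1C (-0.72 to 1.02), at an adjusted p of 0.996. The single mutant phyA exceeded phyB by 0.91 for GID1B (-0.18 to 2.0), 0.76 for GID1A (-0.27 to 1.80) and 0.29 for GID1C (-0.58 to 1.16), at an adjusted p of 1.00. Of kept probe sets 0% were called for phyAphyB against phyA by limma (107 at an unadjusted p under 0.05) and 0.0147% in each of the other comparisons. Without phyB replicate 2, the double mutant was no longer above phyB for GID1A (-0.19) or GID1C (-0.07), and GID1B was at 0.09. Without that array phyA exceeded phyB by 0.37 for GID1B, 0.24 for GID1A and 0.067 for GID1C.

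Grouped by allele, the 4 arrays carrying phyA-211 had higher receptor means than the 4 with functional phytochrome A. The difference was 0.91 log2 units for GID1B (95% interval 0.14 to 1.68), 0.59 for GID1A (-0.14 to 1.33) and 0.37 for GID1C (-0.25 to 0.99), with a limma adjusted p of 0.888 for each and 0.0366% of kept probe sets called. GID1B intensities ran from 987 to 1786 in the carriers and from 529 to 1221 in the others, and GID1A and GID1C overlapped likewise. All 4 carriers were above all 4 others for 1.32% of kept probe sets and for 0 of the receptors. An exact two-sided permutation test of the 4 against 4 arrays gave p = 0.0571 for GID1B, 0.0571 for GID1C and 0.171 for GID1A, where 0.0286 is the smallest value possible. Adjusted over the 6 tests of 3 genes and 2 alleles these became 0.171, 0.171 and 0.343. Both arrays of high GAPDH ratio are among the arrays without phyA-211. With those 2 left out the differences were 0.48 for GID1B, 0.065 for GID1A and 0.14 for GID1C.

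The 4 arrays carrying phyB-9 and the 4 without it had nearly equal receptor means. The difference was 0.00 log2 units for GID1B (95% interval -0.77 to 0.77), -0.17 for GID1A (-0.90 to 0.56) and 0.08 for GID1C (-0.54 to 0.69), at a limma adjusted p of 1.00 each, with 0.0147% of kept probe sets called. Exact two-sided permutation gave p = 1 for GID1B, 0.60 for GID1A and 0.771 for GID1C. The intervals include differences of more than 0.5 log2 units in either direction.

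The interaction asks whether the double mutant departs from what the 2 single mutants add up to. It was -0.52 for GID1A (SE 0.66), -0.57 for GID1B (SE 0.69) and -0.43 for GID1C (SE 0.55), each at a limma adjusted p of 0.996. Their median was -0.52 against 0.12 over all kept probe sets, and 0% of kept probe sets were called (451 at an unadjusted p under 0.05). Centring each array on its median moved the overall median from 0.12 to -0.02. For GID1A the interaction was 0.02 without WT replicate 1 and 0.0023 without phyB replicate 1. Single omissions took GID1B from -1.11 (phyB replicate 2 omitted) to -0.034 (phyB replicate 1 omitted), and for GID1C it ran from -0.67 to -0.19 as single arrays were left out. The moderated F test over the 4 genotypes gave an adjusted p of 0.999 for each receptor in limma, with 0.0147% of kept probe sets called.

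The receptors varied together across arrays. Over the 8 arrays Pearson's r was 0.96 between GID1B and GID1C, 0.92 between GID1A and GID1C and 0.91 between GID1A and GID1B, as a description of arrays that share 2 low members. An r above 0.9 with a receptor was reached by 1.89% of kept probe sets for GID1A, 1.14% for GID1B and 2.28% for GID1C. Among 7348 kept probe sets naming 1 gene, GID1C ranked 7 by likeness to GID1B, and GID1B ranked 24 by likeness to GID1C. GID1B and GID1C ranked 98 and 69 by likeness to GID1A, which itself ranked 59 for GID1B and 86 for GID1C. Without WT replicate 1 and phyB replicate 2, in 6 arrays, r was still 0.96 between GID1B and GID1C but 0.64 between GID1A and GID1B and 0.71 between GID1A and GID1C. GID1B and GID1C then each ranked 11 for the other, while the ranks in pairs with GID1A fell to between 232 and 502.

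The named probe sets most like GID1C were SE, which encodes SERRATE, a zinc-finger protein of microRNA processing (r = 0.99), AT2G47610 (0.99) and AT2G04940 (0.99). On the log2 scale SE was at 9.25 and 10.20 for WT, 10.68 and 10.67 for phyA, 10.67 and 9.82 for phyB and 10.27 and 10.60 for phyAphyB. It was thus low in the same arrays as GID1C, WT replicate 1 and phyB replicate 2. Those most like GID1A were AT3G52240 (0.99), AT4G36440 (0.98) and TUA1, an alpha-tubulin (0.98), and those most like GID1B were AT4G14300 (0.97), AT3G25410 (0.97) and AT2G14910 (0.96). In the 6 arrays, AT4G36440 (0.99) alone of these 9 remained among the 3 most like its receptor, with ATCES1 (0.99) and AT1G53450 (0.98) the others for GID1A. For GID1B they were AT1G11860 (0.99), AtRZ-1c (0.99) and AT5G66010 (0.98), and for GID1C AT5G49555 (0.98), AT2G33410 (0.98) and AT5G66010 (0.98).

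Few other gibberellin genes could be read by name. Of 55 further genes in lists of hormone synthesis, inactivation, DELLA control and response, 5 had a probe set of their own and 4 passed the filter, none of them an enzyme of synthesis or inactivation and none a DELLA. The 4 were SPY, a glycosyltransferase that restrains gibberellin signalling, SEC, a related enzyme that modifies DELLA proteins, SLY1 and EXPA8, a cell wall expansin. In each comparison with WT 0 of the 4 were called. SNE, a homologue of SLY1, did not pass the filter, at intensities of 206 to 520.

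SPY resembled the receptors in its low arrays. Its intensities were 635 and 2734 for the WT arrays, 2571 and 4004 for phyA, 2557 and 1340 for phyB and 1923 and 4235 for phyAphyB. WT replicate 1 was lowest and phyB replicate 2 next, and 11.9% of kept probe sets had these 2 arrays below the other 6. WT replicate 2 was above phyA replicate 1, both phyB arrays and phyAphyB replicate 1. SPY stood 1.25 log2 units higher in phyA than in WT (SE 0.66), 0.47 in phyB (SE 0.66) and 1.08 in phyAphyB (SE 0.66), at limma adjusted p of 0.763, 0.950 and 0.997.

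SLY1, which acts downstream of the receptors, had a lower mean in phyA than in WT, and the difference was not called. Its intensities were 4126 and 2665 for the WT arrays, 2253 and 2070 for phyA, 3470 and 3457 for phyB and 3418 and 3168 for phyAphyB. Both phyA arrays were the lowest of the 8, and WT replicate 1, the array of highest GAPDH ratio, was the highest. The share of kept probe sets with both phyA arrays lowest was not counted. The change in phyA was -0.61 (SE 0.34, limma adjusted p = 0.784), against 0.06 in phyB and -0.01 in phyAphyB.

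SEC and EXPA8 followed neither pattern. SEC had changes of -0.33 in phyA, -0.50 in phyB and -0.31 in phyAphyB against WT, and its intensities of 1300 to 4060 were highest in WT replicate 2. With replicate 1 first, they read 1786 and 4060 in WT and 1614 and 2834 in phyA. In phyB they read 1697 and 2120, and in phyAphyB 1300 and 3618. Every second array thus exceeded every first one, with the unnumbered phyA array counted as a first. The share of kept probe sets that split this way was not counted, and the cause was not tested. EXPA8 was at 4231 in WT replicate 1 and at 17095 to 35682 in the other 7 arrays, with phyB replicate 2 the highest. Its changes were 1.21 in phyA, 1.85 in phyB and 1.28 in phyAphyB (SE 0.61 each), at limma adjusted p of 0.761, 0.744 and 0.997.

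**Figure D5:**
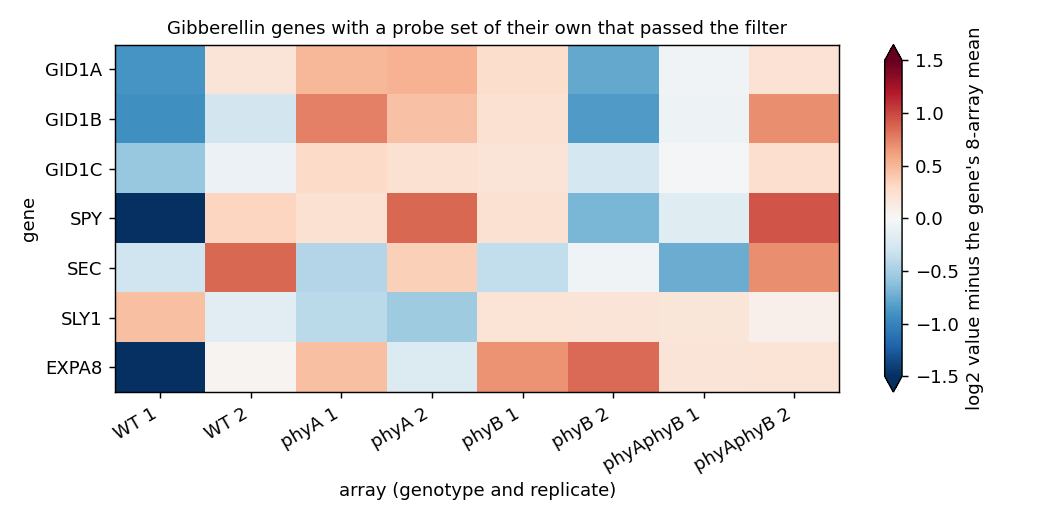
Log2(intensity + 39) of the 7 gibberellin genes that passed the filter (rows), each minus its own mean over the 8 arrays, in every array (columns); red is above and blue below that mean, and colours are cut at 1.5 in both directions. The 3 receptors and SPY are lowest in WT replicate 1 and phyB replicate 2, whereas SLY1 is highest in WT replicate 1.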

How the data were processed

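Total RNA of 8 seedling samples was hybridised to Affymetrix ATH1 arrays, per the labels' protocols. The authors deposited linear intensities as whole numbers, 1 for each array and probe set, and the sources used here do not give the software behind them. Each array's 2% trimmed mean was 2500.2 to 2500.3, so the authors had scaled the deposited intensities. Of 22810 probe sets, 64 controls were left out of the tests.

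Intensities were used as deposited. The pseudocount of 39 is the 10th percentile of all values without controls, and probe sets in the lowest 40% by mean log2 value were left out. All 8 arrays entered 1 limma fit (version 3.58.1, R 4.3.3) with genotype means and trended eBayes moderation (4 residual and 5.87 prior degrees of freedom), tested two-sided with Benjamini-Hochberg adjustment over 13647 probe sets and calls at an adjusted p under 0.05. The number of arrays limits the precision.

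Genes were named through the platform's annotation, with symbols and loci from RefSeq's table of TAIR10.1 (13513 probe sets name 1 gene, 13436 of them in that table). No coordinates are given, since no source names a build for the probe sets, and cross-hybridisation between the receptors was not examined, as probe sequences are not used here. The genes named are the receptors, genes of the gibberellin lists with a probe set, the 3 named probe sets most correlated with each receptor over 8 and over 6 arrays, and the tissue and stage markers that had a probe set of their own. Members and lists were chosen with earlier results of these data known. The title of phyA replicate 1 carries no number.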

Additional observations from a re-analysis of the deposited data

Results flagged for a closer look

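For GID1C both phyB arrays stood above the WT mean while both phyAphyB arrays stood below the phyA mean, so loss of phytochrome B went with opposite directions in the 2 backgrounds. The difference between them, the interaction, was -0.43 log2 units (SE 0.55) and was not called by limma (adjusted p = 0.996). Leaving out each array in turn gave -0.67 to -0.19, the smallest size coming without WT replicate 1. The phyAphyB arrays were at 9.92 and 10.18 and the phyA mean at 10.19, so 1 of them was below it by far less than the spread between replicates. WT replicate 2, at 9.84, lay above phyB replicate 2, at 9.67. By means alone the directions were also opposite for GID1A (0.09 against WT, -0.43 against phyA) and GID1B (0.29 and -0.28). Their interactions were larger, at -0.52 and -0.57. The share of kept probe sets placed as GID1C was not counted.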

How the results depend on the processing

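None of the limma changes of the 3 receptors was called at an adjusted p under 0.05 in any alternative run. The lowest adjusted p was 0.28, for GID1A in phyA against WT without WT replicate 2. The phyA changes against WT stayed positive for all 3 genes in every alternative run, from 0.04 to 1.39 for GID1A. Of 604 alternative values, tests by permutation and F included, 35 turned sign and 1 passed its threshold. It was GID1C by phyA-211 at exact permutation p = 0.029 without phyB replicate 1, not adjusted. That is the smallest p the arrays left allow. The array left out, at 10.12, was the highest of those without phyA-211, and the groups overlapped with it in. GID1B and GID1C gave no value with the lowest 60% of probe sets left out, since they did not pass that filter. Array weights in limma could not weigh 1 array of a pair against the other and left the changes as they were.

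Directions turned for GID1A with the GAPDH ratio as a covariate (interaction 0.034, phyAphyB against WT -0.17, phyB against WT -0.24) and without both arrays of high ratio (phyAphyB against WT -0.11, against phyB -0.19). Without those arrays GID1C was at -0.073 in phyAphyB against phyB. The phyB-9 difference of GID1B, 0.00 in the main setting, was -0.043 with quantile normalization or the covariate and -0.052 with median centring, in limma and, for both scalings, in the permutation comparison. The covariate was added after seeing the data, and the cause was not tested.

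Leaving out each array in turn turned the direction of some changes and not of others. For GID1A the ranges that spanned 0 were -1.06 to 0.018 (interaction), -0.19 to 0.86 (phyAphyB against phyB), -0.11 to 0.96 (phyAphyB against WT), -0.45 to 0.63 (phyB against WT) and -0.44 to 0.10 (phyB-9; -0.49 to 0.060 as plain means). For GID1B they were -0.67 to 0.10 (phyAphyB against phyA), -0.25 to 0.82 (phyB against WT) and -0.27 to 0.27 (phyB-9; -0.31 to 0.28 as plain means). For GID1C they were -0.073 to 0.38 (phyAphyB against phyB) and -0.044 to 0.20 (phyB-9; -0.10 to 0.18 as plain means). Ranges that did not span 0 include 0.87 to 1.52 for GID1B in phyA against WT, -1.11 to -0.034 for the GID1B interaction and 0.24 to 0.49 for GID1C by phyA-211 as plain means.

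Counts of called probe sets over the whole array were small, so they moved by over 1.5 times easily. For phyA against WT, 2 in the main setting, 1 was called with a pseudocount of 1, the lowest 60% left out, both arrays left out or the covariate. For phyAphyB against WT, 3 in the main setting, 1 was called with a pseudocount of 1 or without both arrays. For phyB against WT, 0 in the main setting, 2 were called with no filter or the lowest 60% left out. By phyA-211, 5 in the main setting, 3 were called with median centring, no trend or the lowest 60% left out, and 2 with the replicate block, the covariate or without both arrays. By phyB-9, 2 in the main setting, 0 were called with median centring, no trend, the replicate block, the covariate or without both arrays. Between mutants, phyA against phyB, 2 in the main setting, ran from 0 (pseudocount of 1) to 3, and phyAphyB against phyB, also 2, from 0 (without phyB replicate 1) to 5 (with only their arrays in the fit). Leaving out 1 array gave 2 to 93 calls for phyA, 2 to 30 for phyAphyB and 0 to 70 for phyB against WT, 2 to 6 by phyA-211, 0 to 7 by phyB-9 and 0 to 16 for the interaction. The highest count in each came without WT replicate 2.

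Nothing in the labels says what a replicate number stands for, and the check for pairing was mixed. Differences between number 2 and number 1 correlated at 0.64 for WT and phyAphyB, 0.15 for phyB and phyAphyB and -0.06 for WT and phyB, so the numbers were not taken as pairs. WT replicate 1 and phyB replicate 2, which stand apart in GAPDH and carry different numbers, enter these differences. Of the 7 numbered arrays, 6 correlated best with an array of their own number. Without those 2 arrays, log2 values correlated at 0.962 to 0.965 in the 4 pairs of equal number and at 0.938 to 0.949 in the 6 pairs of unequal number. Over all numbered arrays these ranges overlapped, at 0.915 to 0.965 for equal and 0.908 to 0.949 for unequal numbers. The unnumbered phyA array correlated at 0.963 with phyB replicate 1 and at 0.957 with phyAphyB replicate 1. Its r was 0.947 with WT replicate 2, 0.944 with phyA replicate 2 and 0.939 with phyAphyB replicate 2. With WT replicate 1 and phyB replicate 2 it was 0.929 and 0.922. What the number stands for was not tested. With the replicate block, the unnumbered phyA array had a level of its own, so the phyA mean rested on phyA replicate 2 alone. The phyA changes against WT were then 0.81 for GID1A, 0.98 for GID1B and 0.51 for GID1C.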

Other observations

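Among markers of other tissues and stages, EXPA7, a root hair expansin, had an intensity of 99 in WT replicate 1 and 483 to 950 in the other 7 arrays. PYK10, a beta-glucosidase abundant in roots, was highest in phyB replicate 2 (120174) and WT replicate 1 (111995), the arrays lowest for the receptors, against 66582 to 81912 in the other 6. PAP85, a vicilin-like seed storage protein, was at 4426 to 8835 in WT and phyA and at 12256 to 24718 in the 4 arrays with phyB-9. Its phyB-9 difference of 1.57 log2 units was not called (limma adjusted p = 0.60). The share of kept probe sets separating these arrays in the same way was not counted. The part of root or seed tissue in the receptor values was not tested. Of the lists for light-grown seedlings, pollen and the apical hook 0 genes had a probe set of their own.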
